A study of Mus musculus with 9 samples.

Results

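The mRNA of 41 genes of the complement, coagulation and fibrinolysis cascades was measured among the 27179 genes of the table, chosen as a list of names with earlier results of these data known, by a rule that uses no measured value. They comprise 18 complement genes, 14 clotting factors and 9 genes of inhibitors and fibrinolysis. The livers came from female mice with a C57BL/6 background that lacked *Apoe* in both groups and were fed a high-fat, cholesterol-containing diet (HFD) for 12 weeks from 8 weeks of age. The comparison group was *Apoe*-/- (5 libraries, called WT in the labels), and the other group additionally lacked *Mif-2* in the whole animal, *Mif-2*-/-*Apoe*-/- (4 libraries, called DKO in the labels). Each library was made with Smart-seq2 from poly(A) RNA in pooled lysates of frozen sections. The study's text describes fewer *Apoe*-/- samples than these 5 libraries and the labels do not say whether each came from a separate mouse, so p-values measure the spread between libraries, which may in part be technical.

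The liver makes most of the proteins of the complement, clotting and fibrinolysis cascades, and hepatocytes are the main source. In the complement cascade, recognition proteins activate serine proteases that build convertases that cleave C3, and the terminal proteins then assemble into a membrane pore. In clotting, a chain of proteases ends with thrombin, which turns fibrinogen into fibrin. Serpins and the protein C pathway restrain that chain, and plasmin dissolves the clot.

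Total counts ranged from 2318148 to 10764182 per library, with *Mif-2*-/-*Apoe*-/- replicate 2 the shallowest. *Ddt*, the gene that encodes MIF-2, had 1205 to 4820 counts in *Apoe*-/- libraries and 6 to 27 in *Mif-2*-/-*Apoe*-/- libraries. All 41 genes passed the filter on low counts and were tested with 16860 genes in all, and 38 averaged 10 CPM or more (counts scaled to library size). Together they took between 2.58% and 4.13% of all counts. Levels are CPM after TMM scaling, which sets libraries to a common level by a trimmed mean of their ratios, and fold changes are *Mif-2*-/-*Apoe*-/- over *Apoe*-/-.

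Most members had a lower mean level in *Mif-2*-/-*Apoe*-/- livers, yet edgeR called none after adjustment over all genes and DESeq2 called 3. The log2 fold change was below 0 for 32 of the 41 members, where it was below 0 for 7328 of the 16860 genes tested. Of the 8153 genes averaging 10 CPM or more, 3957 were below 0. The median of the members was -0.63, against 0.17 over all genes tested and 0.03 over these 8153 genes. With edgeR's quasi-likelihood test and Benjamini-Hochberg adjustment, 0 of 41 members had an adjusted p below 0.05, against 0.130% of all genes tested. At an unadjusted p below 0.05, 14 members were lower in *Mif-2*-/-*Apoe*-/- livers and 1, *Masp1*, was higher, where 6.52% of all genes tested were lower and 8.99% higher. Among the genes averaging 10 CPM or more these shares were 10.9% lower and 7.83% higher. DESeq2 called 3 members lower at an adjusted p below 0.05, *F2*, *Fgg* and *C3*, and none higher, where it called 2.52% of the genes it gave an adjusted p lower and 2.75% higher. At an unadjusted p below 0.05 DESeq2 had 16 members lower and 3 higher, where it had 6.22% of all genes lower and 8.17% higher.

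**Figure D1:**
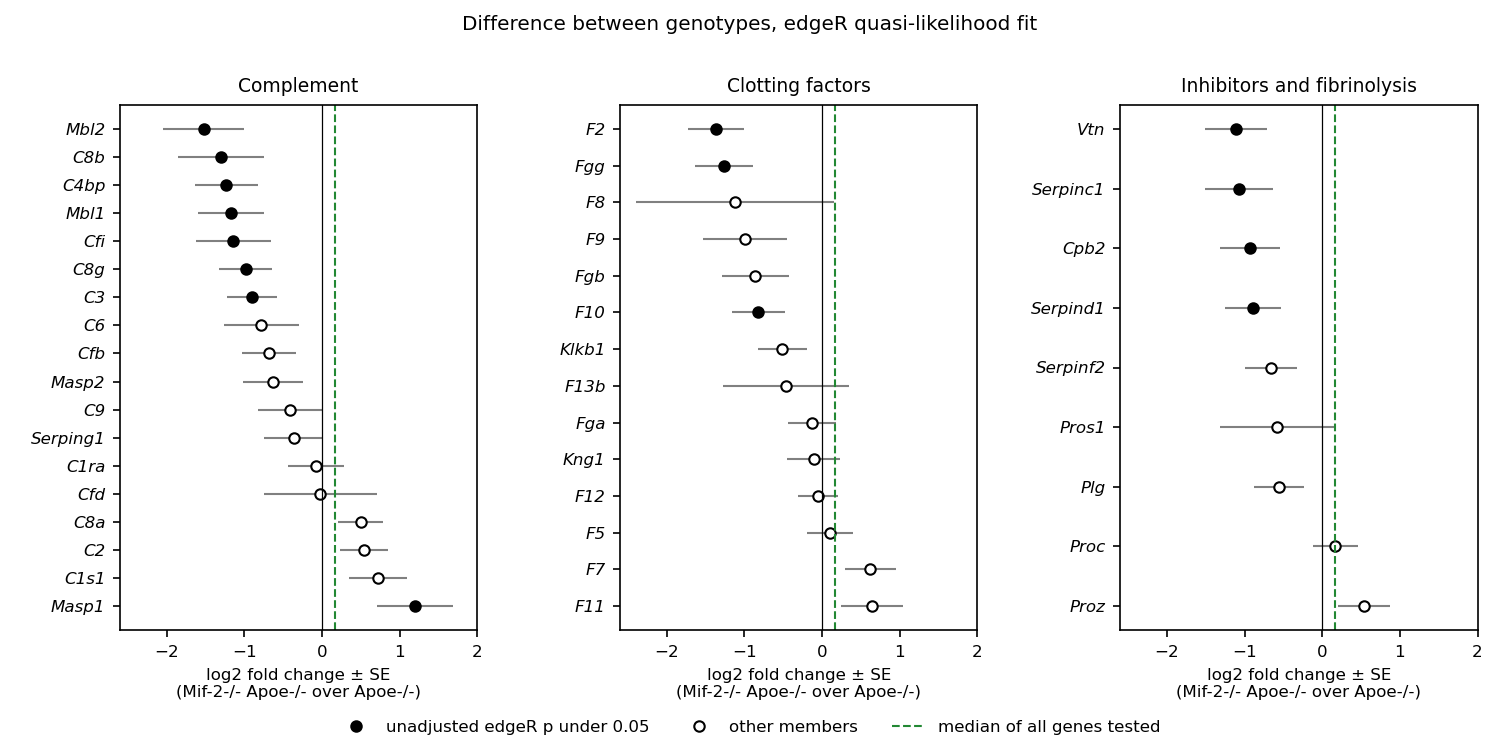
The log2 fold change of every member (*Mif-2*-/-*Apoe*-/- over *Apoe*-/-, horizontal axis) is plotted with its standard error for complement, clotting factors, and inhibitors and fibrinolysis. The 15 filled points have an unadjusted edgeR p below 0.05, and all of them except *Masp1* lie to the left of 0 and of the dashed line, the median of all genes tested at 0.17.

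The libraries of a genotype were not alike, and this touches nearly every value below. Counts of 12 hepatocyte marker genes made up 18.8%, 18.8%, 21.4%, 22.3% and 11.2% of all counts in *Apoe*-/- replicates 1 to 5, and 11.2%, 23.1%, 9.33% and 12.5% in *Mif-2*-/-*Apoe*-/- replicates 1 to 4. Thus *Apoe*-/- replicate 5 was low and *Mif-2*-/-*Apoe*-/- replicate 2 high, and the genotypes overlapped (18.5 ± 4.35% (SD, n = 5) against 14.0 ± 6.21% (SD, n = 4), two-sided exact permutation test, p = 0.214). No marker of this list was at 0, and 7 of the 12 were among the 10 most highly expressed genes, which were left out of the fit. The markers differed among themselves. DESeq2 had 5 of the 12 lower at an unadjusted p below 0.05, where it had 6.22% of all genes lower. It called 1, *Trf*, lower (adjusted p = 0.00978), while *Apoa1* and *Alb* had adjusted p-values of 0.939 and 0.592. Of the 5 in the edgeR fit, 4 were below 0 and *Cps1* was at 0.03 (SE 0.39). *Apoe*-/- replicate 5 had the lowest level of the 5 *Apoe*-/- libraries for 29 of the 41 members, and *Mif-2*-/-*Apoe*-/- replicate 2 the highest of the 4 *Mif-2*-/-*Apoe*-/- libraries for 24. Among the 14 members lower at an unadjusted p below 0.05, these counts were 14 and 13. In bulk liver, fewer hepatocytes in a section and less of an mRNA per hepatocyte cannot be told apart. With the hepatocyte marker share of each library as a covariate, which was added after seeing the data, 27 members remained below 0, 10 were lower and 2 higher at an unadjusted p below 0.05, none was called, and the median of the members was -0.37. In that fit 5.18% of all genes tested were lower and 5.08% higher at this threshold, the median over all genes was 0.01, and the distance of the members from it was -0.38 in place of -0.80. All 14 members lower at an unadjusted p below 0.05 were nearer to 0 with the covariate, and 10 of them by more than 1.5 times, with log2 fold changes of -0.73 for *Mbl1*, -0.85 for *C8b*, -0.63 for *C8g*, -0.62 for *Cfi*, -0.74 for *C4bp*, -0.83 for *Fgg*, -0.43 for *F10*, -0.55 for *Serpinc1*, -0.59 for *Serpind1* and -0.66 for *Vtn*. *Mbl2*, *C3*, *F2* and *Cpb2* moved by less, to -1.05, -0.66, -1.02 and -0.63. The share is itself made mostly of secreted liver proteins. It was lowest of the *Apoe*-/- libraries in replicate 5 and highest of *Mif-2*-/-*Apoe*-/- in replicate 2, as nearly all of these 14 members were. A move toward 0 with the covariate thus follows from that order of libraries. The part of the share in the difference was not tested.

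**Figure D2:**
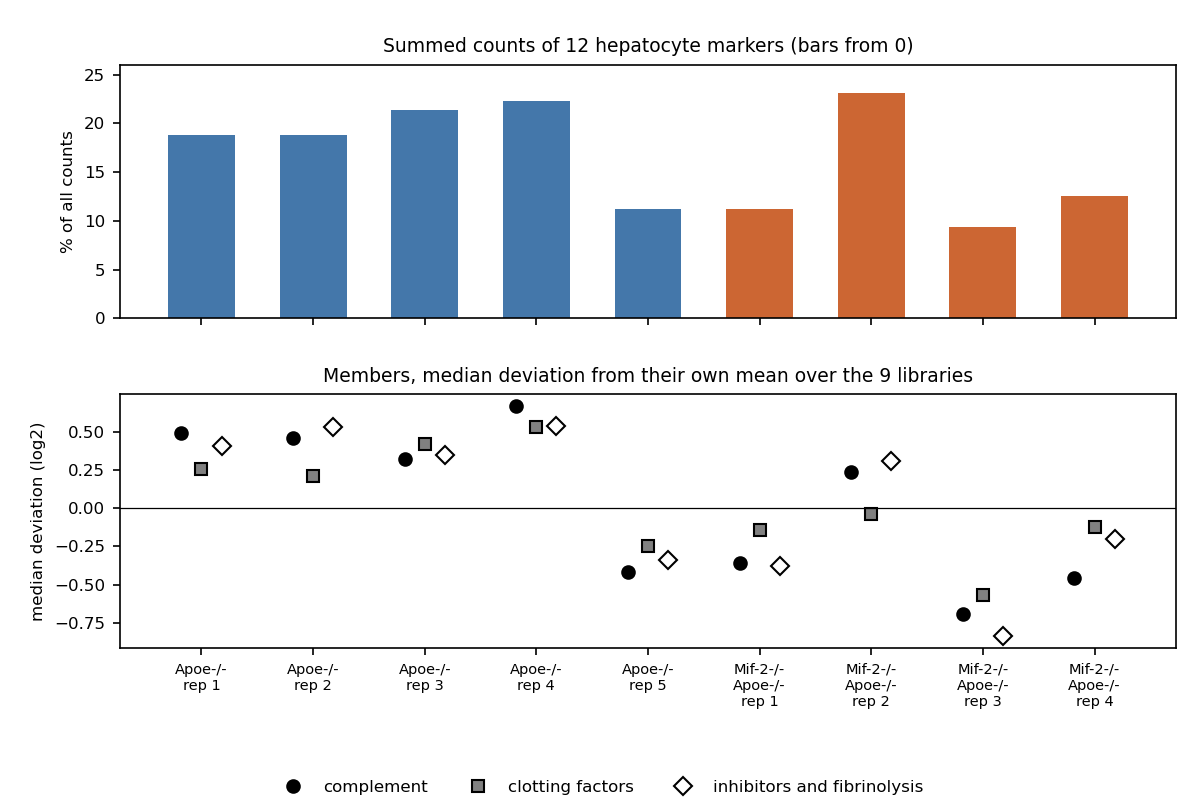
The upper panel gives the percentage of all counts from 12 hepatocyte markers in each of the 9 libraries (blue, *Apoe*-/-; orange, *Mif-2*-/-*Apoe*-/-), and the lower panel the median deviation of each role's members from their own mean on the log2 scale. *Apoe*-/- replicate 5, at 11.2%, lies below 0 in all 3 roles with *Mif-2*-/-*Apoe*-/- replicates 1, 3 and 4, while *Mif-2*-/-*Apoe*-/- replicate 2, at 23.1%, lies at 0.24, -0.04 and 0.31.

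Complement was led by *C3*, the central component that every activation pathway cleaves. Compared per kilobase of exon, its mean level over the 9 libraries was 1555 CPM per kb, followed by *Cfb*, the protease subunit of the alternative-pathway C3 convertase, at 1097 CPM per kb. The 18 complement genes spanned a wide range, down to 2.19 CPM per kb for *Masp1*. The median log2 fold change was -0.65, with 14 below 0, 7 lower and 1 higher at an unadjusted p below 0.05, and none called by edgeR. At this threshold 6.52% of all genes tested were lower and 8.99% higher, and 10.9% and 7.83% of those averaging 10 CPM or more.

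Both mannose-binding lectins, the sugar-recognising proteins that start the lectin pathway, had low levels in 3 of the 4 *Mif-2*-/-*Apoe*-/- libraries. *Mbl1* (Entrez 17194, chr14:41151458-41159601 in GRCm38) was at 536, 518, 569, 609 and 236 CPM in *Apoe*-/- replicates 1 to 5 and at 128, 466, 139 and 144 CPM in *Mif-2*-/-*Apoe*-/- replicates 1 to 4. The log2 fold change was -1.17 (SE 0.43), with adjusted p-values of 0.225 (edgeR) and 0.126 (DESeq2). *Mif-2*-/-*Apoe*-/- replicate 2 lay between *Apoe*-/- replicate 5 and the other 4 *Apoe*-/- libraries, and the other 3 *Mif-2*-/-*Apoe*-/- libraries were below all of *Apoe*-/-. *Mbl2* (Entrez 17195, chr19:30232942-30239687), on another chromosome, had a like arrangement of libraries, with *Mif-2*-/-*Apoe*-/- replicate 2 between *Apoe*-/- replicates 1 and 2, at 874, 956, 1528, 1723 and 542 CPM against 220.4, 940.4, 219 and 189 CPM. Its log2 fold change of -1.52 (SE 0.52) was the lowest of the 41 members, at adjusted p-values of 0.189 (edgeR) and 0.0804 (DESeq2). Without *Mif-2*-/-*Apoe*-/- replicate 2 it was -2.52, and both *Mbl1* and *Mbl2* were then called by edgeR.

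*Masp1*, whose gene encodes the protease MASP-1 that sits on these lectins, as well as other proteins from alternative transcripts, was on the other side of 0. It was at 14.0, 13.7, 8.45, 15.5 and 16.3 CPM in *Apoe*-/- libraries and 45.4, 26.7, 36.3 and 17.1 CPM in *Mif-2*-/-*Apoe*-/- libraries (Entrez 17174, chr16:23449417-23520815). Every *Mif-2*-/-*Apoe*-/- library was above every *Apoe*-/- library, although the margin was small (8.45 to 16.3 against 17.1 to 45.4 CPM). *Masp1* was the only member whose genotypes did not overlap, where 2.03% of all genes tested were separated in this direction and 2.24% in the opposite one. Its log2 fold change was 1.20 (SE 0.49), with adjusted p-values of 0.267 (edgeR) and 0.0528 (DESeq2), and it had 18 to 223 counts per library. *Masp2*, for the protease that cleaves C4 and C2, was at 86.5 to 351 CPM in *Apoe*-/- and 138 to 231 CPM in *Mif-2*-/-*Apoe*-/- libraries, with a log2 fold change of -0.63 (SE 0.38). Exons of *Masp2* overlap the opposite strand of *Tardbp*, and whether counting used the strand is not given in the sources used here, so its reads cannot be told apart with certainty.

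*C1ra* and *C1s1*, which encode the proteases of the C1 complex, had log2 fold changes of -0.08 (SE 0.36) and 0.72 (SE 0.37). The genes lie 6.9 kb apart on chromosome 6, and each has a near copy in the mouse genome, so that reads could be divided between copies. *C1ra* had its lowest value, 66.0 CPM, in *Apoe*-/- replicate 5 and *C1s1* its highest, 1185 CPM, in *Mif-2*-/-*Apoe*-/- replicate 1.

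*C3* was at 11613, 11310.2, 9035, 11589 and 6876 CPM in *Apoe*-/- libraries and 4202, 7497, 4470.3 and 5375 CPM in *Mif-2*-/-*Apoe*-/- libraries (Entrez 12266, chr17:57203970-57228136). *Mif-2*-/-*Apoe*-/- replicate 2 was above *Apoe*-/- replicate 5 and below the other 4 *Apoe*-/- libraries, and the other 3 *Mif-2*-/-*Apoe*-/- libraries were below all *Apoe*-/- libraries. Mean levels of 10085 ± 2091 (*Apoe*-/-, SD, n = 5) against 5386 ± 1494 CPM (*Mif-2*-/-*Apoe*-/-, SD, n = 4) gave a log2 fold change of -0.90 (SE 0.32) with adjusted p-values of 0.21 (edgeR) and 0.0304 (DESeq2). Of 9 DESeq2 fits that each left out a library, 2 called *C3*, those lacking *Apoe*-/- replicate 5 or *Mif-2*-/-*Apoe*-/- replicate 2. *Cfb* was at 4589, 4422, 3529, 4184 and 1884 CPM and 1802, 3178, 1632 and 2662 CPM (Entrez 14962, chr17:34856374-34862518), with *Mif-2*-/-*Apoe*-/- replicates 2 and 4 above *Apoe*-/- replicate 5, and had a log2 fold change of -0.68 (SE 0.35) and an adjusted p of 0.363. *C2*, the counterpart of *Cfb* in the classical pathway and its neighbour on chromosome 17, had a log2 fold change of 0.54 (SE 0.31) and an adjusted p of 0.423. Both genes share exons with the read-through gene model *Gm20547* on the same strand. *Cfd*, for factor D, which cleaves factor B, is best known as an adipocyte product, and it was at 4.67 to 36.3 CPM in *Apoe*-/- and 3.43 to 21.7 CPM in *Mif-2*-/-*Apoe*-/- libraries. The summed level of 6 adipocyte markers was 1.20 to 21.3 CPM in *Apoe*-/- and 1.73 to 49.95 CPM in *Mif-2*-/-*Apoe*-/- libraries. The library highest in *Cfd* was *Apoe*-/- replicate 4, where *Plin1*, the adipocyte lipid-droplet protein perilipin, was at 0.403 CPM. Within *Mif-2*-/-*Apoe*-/-, replicate 3 was highest in *Cfd*, and *Plin1* and *Adig*, a gene of adipocyte differentiation, were highest there of all libraries, at 34.0 and 9.58 CPM, while *Adipoq* stayed at or below 1.07 CPM in every library. Replicate 2 of that genotype had nearly as much *Cfd*, 20.4 against 21.7 CPM, with *Plin1* at 1.14 and *Adig* at 0 CPM. In *Apoe*-/- replicate 5, *Plin1* was at 15.3 and *Cfd* at 8.71 CPM. *Retn*, another adipocyte marker, was highest in *Mif-2*-/-*Apoe*-/- replicate 4, at 8.69 CPM, where *Cfd* was lowest, at 3.43 CPM. Of the 5 adipocyte markers tested, *Adig* had an unadjusted p below 0.05, higher, and the part of adipocytes in the level of *Cfd* was not tested.

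The terminal pathway genes differed among themselves. C8 is made of 3 chains, of which alpha and beta belong to the pore-forming family and gamma to the lipocalins. *C8g* (Entrez 69379, chr2:25498651-25501719) was by far the most abundant per kilobase, at 789 CPM per kb against 27.9 for *C8a* and 22.0 for *C8b*. *C8g* was at 1754, 1787, 1449, 1753 and 796 CPM in *Apoe*-/- and 726, 1024, 445 and 873 CPM in *Mif-2*-/-*Apoe*-/- libraries, where only *Mif-2*-/-*Apoe*-/- replicates 2 and 4 exceeded *Apoe*-/- replicate 5. *C8g* had a log2 fold change of -0.98 (SE 0.34), at adjusted p-values of 0.204 (edgeR) and 0.0528 (DESeq2). *C8b* (Entrez 110382, chr4:104766317-104804548) was at 79.6, 59.9, 89.7, 111 and 39.3 CPM and 25.6, 69.3, 7.05 and 22.4 CPM, with its lowest value in *Mif-2*-/-*Apoe*-/- replicate 3, and had a log2 fold change of -1.30 (SE 0.55) and an adjusted p of 0.28. *C8a*, whose gene lies 11.1 kb from *C8b* on the same chromosome, had values of 83.1, 115, 66.2, 89.1 and 74.2 CPM in *Apoe*-/- and 125, 112, 134 and 114 CPM in *Mif-2*-/-*Apoe*-/- libraries. Only 1 *Apoe*-/- library exceeded any *Mif-2*-/-*Apoe*-/- library there, and the log2 fold change was 0.50 (SE 0.29, adjusted p = 0.418 by edgeR). *C6*, which binds C5b, and *C9*, which polymerises into the pore, had log2 fold changes of -0.78 (SE 0.48) and -0.41 (SE 0.41). *C6* was at 34.0 to 39.9 CPM in *Apoe*-/- and 9.57 to 35.7 CPM in *Mif-2*-/-*Apoe*-/- libraries, a narrow range against a wide one.

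Among the regulators, *Cfi* encodes the protease that degrades C3b and C4b, and *C4bp* encodes a cofactor for it. *Cfi* (Entrez 12630, chr3:129835884-129875332) was at 289, 307, 267, 392 and 111 CPM in *Apoe*-/- and 101, 271, 53.4 and 74.1 CPM in *Mif-2*-/-*Apoe*-/- libraries. *Mif-2*-/-*Apoe*-/- replicate 2 was again within the range of *Apoe*-/-, and the other 3 *Mif-2*-/-*Apoe*-/- libraries were below every *Apoe*-/- library. *Cfi* had a log2 fold change of -1.14 (SE 0.48), and the adjusted p-values were 0.277 (edgeR) and 0.185 (DESeq2). *C4bp* (Entrez 12269, chr1:130634773-130661632) was at 312, 299, 263, 416 and 118 CPM and 156, 185, 72.6 and 69.5 CPM. Here *Mif-2*-/-*Apoe*-/- replicates 1 and 2 exceeded *Apoe*-/- replicate 5 and no other *Apoe*-/- library, and the log2 fold change was -1.23 (SE 0.41) at adjusted p-values of 0.186 (edgeR) and 0.0663 (DESeq2). A related pseudogene could share its reads. *Serping1*, for the C1 inhibitor, which also restrains the contact system, was at 538 to 1687 CPM in *Apoe*-/- and 616 to 1522 CPM in *Mif-2*-/-*Apoe*-/- libraries, with a log2 fold change of -0.36 (SE 0.38).

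**Figure D3:**
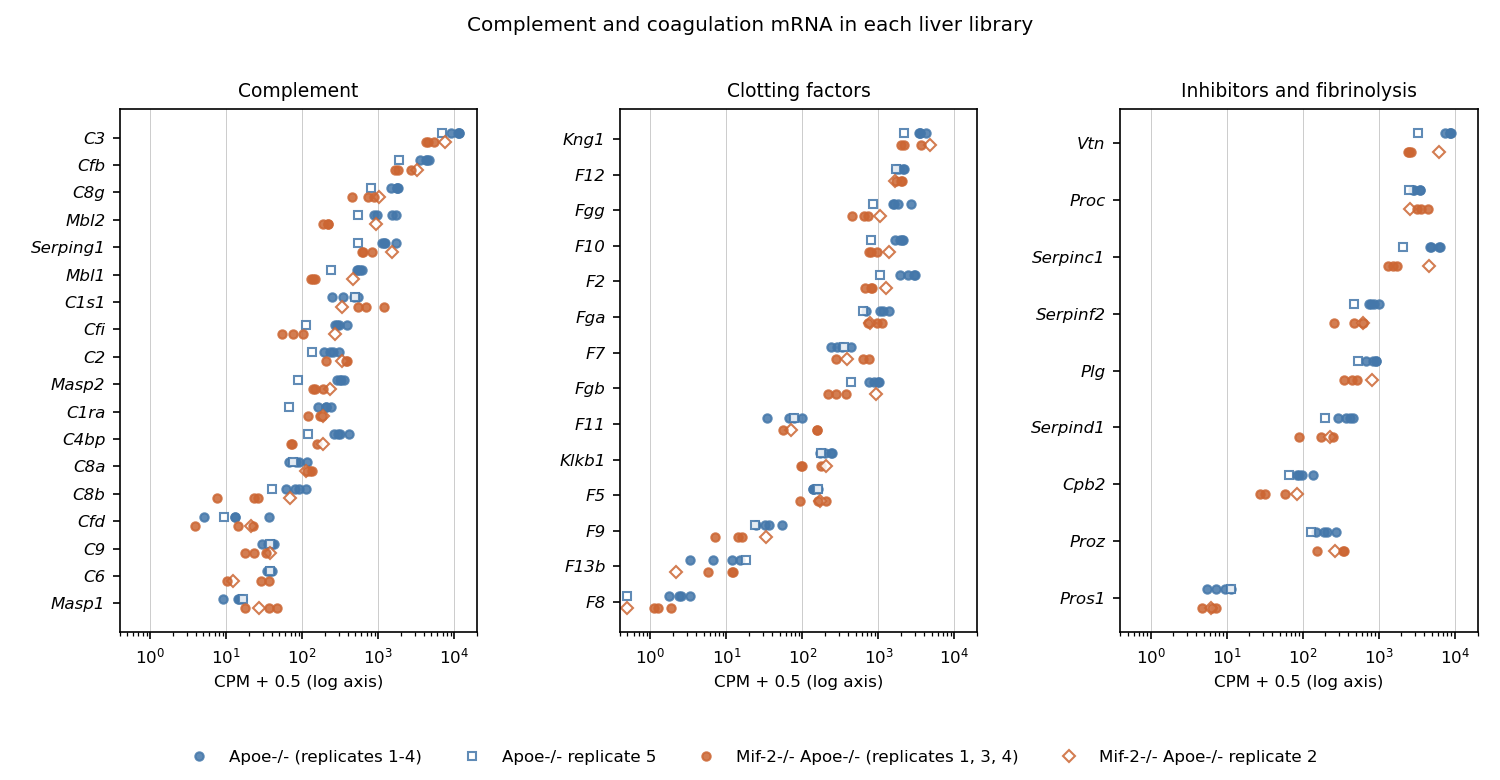
Each row is a member, ordered by its mean level per kilobase of exon, and each point is a library on a log axis of CPM + 0.5 (blue, *Apoe*-/-; orange, *Mif-2*-/-*Apoe*-/-; open square, *Apoe*-/- replicate 5; open diamond, *Mif-2*-/-*Apoe*-/- replicate 2). In *C3*, *Mbl2*, *Fgg*, *F2*, *Vtn* and *Serpinc1* the open square lies apart to the left of the other blue points and the open diamond to the right of the other orange points, while *Masp1* is the row in which the colours do not overlap.

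The clotting factors had a median log2 fold change of -0.49, with 11 of 14 below 0, 3 lower and 0 higher at an unadjusted p below 0.05. Among all genes tested 6.52% were lower and 8.99% higher, and among those averaging 10 CPM or more 10.9% and 7.83%. In a list of 14 genes, a count of 3 does not stand apart from these shares. Their most abundant members per kilobase, *Kng1* and *F12*, hardly differed in mean. *Kng1* encodes kininogen, the source of bradykinin and a cofactor of contact activation, and *F12* encodes factor XII, which starts that pathway. *Kng1* was at 3569, 3569, 3367, 4272 and 2178 CPM in *Apoe*-/- and 1993, 4765, 2149.7 and 3675 CPM in *Mif-2*-/-*Apoe*-/- libraries (Entrez 16644, chr16:23057865-23082078), 1009.8 CPM per kb over all libraries, and its near copy *Kng2* could share its reads. *Kng2* was at 356 to 489 CPM in *Apoe*-/- and 542 to 695 CPM in *Mif-2*-/-*Apoe*-/- libraries, without overlap, with a log2 fold change of 0.41 (SE 0.26). Among all genes tested 2.03% were separated in this direction. *Kng1* had a log2 fold change of -0.11 (SE 0.34, adjusted p = 0.915 by edgeR), with the highest value of all in *Mif-2*-/-*Apoe*-/- replicate 2. *F12* was at 2130.2, 2172, 1722, 1863 and 1703 CPM and 2022, 1662, 1726 and 2006 CPM (Entrez 58992, chr13:55417958-55426793), 964 CPM per kb, with a log2 fold change of -0.05 (SE 0.26, adjusted p = 0.953 by edgeR). The spread of *F12* was narrow, 1918 ± 222 CPM (SD, n = 5) against 1854 ± 187 CPM (SD, n = 4), and *Apoe*-/- replicate 5 was close to the rest.

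Fibrinogen, the substrate of thrombin, is a dimer of 3 chains encoded by *Fga*, *Fgb* and *Fgg*, which lie within 42.1 kb on chromosome 3, with *Fgb* on the opposite strand. All 3 genes are known to respond to interleukin-6 in the acute phase. The promoters are printed as a description of genes whose products form 1 protein. The log2 fold changes of the 3 genes ran from -1.26 to -0.13, but no ratio of 2 chains had an adjusted exact permutation p below 0.05. Whether promoter sequence bears on these levels was not tested. The stretches run from 250 bases before to 50 bases after the start in RefSeq (GRCm38.p6), and capitals mark matches to TTGCNNAA, a C/EBP-type motif, and to CTGGGAA, a type II IL-6 response motif, on either strand. For *Fga* the stretch is chr3:83025903-83026202 on the plus strand, for *Fgb* chr3:83049814-83050113 on the minus strand and for *Fgg* chr3:83007474-83007773 on the plus strand.
Fga: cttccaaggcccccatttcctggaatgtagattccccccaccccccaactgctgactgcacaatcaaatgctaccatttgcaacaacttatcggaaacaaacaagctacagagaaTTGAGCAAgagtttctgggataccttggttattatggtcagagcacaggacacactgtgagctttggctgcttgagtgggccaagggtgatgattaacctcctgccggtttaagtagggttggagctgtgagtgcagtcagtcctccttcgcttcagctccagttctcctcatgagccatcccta
Fgb: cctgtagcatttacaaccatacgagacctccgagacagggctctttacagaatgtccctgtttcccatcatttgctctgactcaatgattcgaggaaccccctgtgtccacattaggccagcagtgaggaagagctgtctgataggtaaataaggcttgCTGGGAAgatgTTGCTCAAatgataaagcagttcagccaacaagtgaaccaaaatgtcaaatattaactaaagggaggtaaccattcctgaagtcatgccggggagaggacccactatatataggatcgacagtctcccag
Fgg: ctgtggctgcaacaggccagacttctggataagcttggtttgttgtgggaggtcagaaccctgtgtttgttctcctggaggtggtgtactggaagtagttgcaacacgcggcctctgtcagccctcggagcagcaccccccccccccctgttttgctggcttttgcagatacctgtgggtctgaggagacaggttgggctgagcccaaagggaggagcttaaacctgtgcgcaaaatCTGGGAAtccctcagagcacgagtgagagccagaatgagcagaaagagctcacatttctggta
The C/EBP-type match lay 135 bases before the start in *Fga* and 80 bases before it in *Fgb*, and these letters did not occur in the stretch of *Fgg*. The IL-6 response match lay 91 bases before the start in *Fgb* and 13 bases before it in *Fgg*, and did not occur in that of *Fga*. These distances are from the RefSeq start. The GENCODE span of *Fga*, chr3:83026076-83033627, begins upstream of that start, inside the printed stretch, so the distance for *Fga* depends on the annotation. Over 32851 promoters of this length, 10.8% held the first motif and 11.1% the second. Of the 33 members with a promoter in the table, 11 held the first and 7 the second. A match is a description of the letters and not of binding.

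*Fgg* (Entrez 99571, chr3:83007724-83015049) had the larger difference, at 1548, 1609, 1833, 2711 and 854 CPM in *Apoe*-/- replicates 1 to 5 and 653, 1036, 724 and 452 CPM in *Mif-2*-/-*Apoe*-/- replicates 1 to 4. Of the *Mif-2*-/-*Apoe*-/- libraries, replicate 2 exceeded *Apoe*-/- replicate 5, and the other 3 were below all *Apoe*-/- libraries. Mean levels of 1711 ± 668 (*Apoe*-/-, SD, n = 5) against 717 ± 242 CPM (*Mif-2*-/-*Apoe*-/-, SD, n = 4) gave a log2 fold change of -1.26 (SE 0.37) with adjusted p-values of 0.161 (edgeR) and 0.0303 (DESeq2). DESeq2 called *Fgg* in 2 of the 9 fits with a library left out, again those without *Apoe*-/- replicate 5 or *Mif-2*-/-*Apoe*-/- replicate 2. *Fgb* was at 754, 862, 989.7, 1031 and 438 CPM and 377, 923, 278 and 214 CPM (Entrez 110135, chr3:83040141-83049863), where 3 *Mif-2*-/-*Apoe*-/- libraries were below every *Apoe*-/- library and *Mif-2*-/-*Apoe*-/- replicate 2 was within their range. For *Fgb* the log2 fold change was -0.86 (SE 0.43, adjusted p = 0.347 by edgeR). *Fga* was at 694, 1050.4, 1146, 1362 and 631 CPM and 1118, 785, 955 and 721 CPM (Entrez 14161, chr3:83026076-83033627), with the libraries of both genotypes interspersed and a log2 fold change of -0.13 (SE 0.31, adjusted p = 0.887 by edgeR).

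Ratios of 2 chains within a library do not depend on how libraries are scaled to each other. The 7 pairs of chains or partners of fibrinogen, C8 and the C1 proteases were compared as log2 ratios of counts, with 0.5 added, after the member values had been seen. The *Fga*/*Fgg* ratio was 0.448, 0.653, 0.625, 0.502 and 0.739 in *Apoe*-/- libraries and 1.71, 0.757, 1.32 and 1.59 in *Mif-2*-/-*Apoe*-/- libraries. All *Mif-2*-/-*Apoe*-/- libraries were above all *Apoe*-/- libraries, by a small margin between *Apoe*-/- replicate 5 and *Mif-2*-/-*Apoe*-/- replicate 2, and the difference of the mean log2 ratios was 1.14 (two-sided exact permutation test, p = 0.00794, adjusted over 7 ratios 0.0556). The *Fgb*/*Fgg* ratio overlapped, at 0.487, 0.536, 0.540, 0.380 and 0.513 against 0.578, 0.891, 0.384 and 0.472, with a difference of 0.18 (exact p = 0.54, adjusted 0.54). The *Fga*/*Fgb* ratio was 0.920, 1.22, 1.16, 1.32 and 1.44 against 2.96, 0.850, 3.44 and 3.37, with *Mif-2*-/-*Apoe*-/- replicate 2 below every *Apoe*-/- library and the other 3 above them all (difference 0.96, exact p = 0.0952, adjusted 0.167).

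In the C8 complex, *C8a* stood apart in a similar way. The *C8a*/*C8g* ratio was 0.0475, 0.0644, 0.0458, 0.0509 and 0.0933 in *Apoe*-/- and 0.172, 0.110, 0.301 and 0.131 in *Mif-2*-/-*Apoe*-/- libraries, without overlap and with a difference of 1.51 in log2 ratio (exact permutation p = 0.0159, adjusted 0.0556). The *C8a*/*C8b* ratio was 1.04, 1.92, 0.739, 0.802 and 1.88 against 4.86, 1.62, 18.6 and 5.09, where *Mif-2*-/-*Apoe*-/- replicate 2 lay within the *Apoe*-/- range, and the difference was 2.15 (exact permutation p = 0.0238, adjusted 0.0556). *C8b*/*C8g* differed by -0.65 (exact permutation p = 0.183, adjusted 0.256) and *C1s1*/*C1ra* by 0.60 (exact permutation p = 0.333, adjusted 0.389). No ratio was below 0.05 after adjustment, and 126 arrangements allow no p under 0.00794. These are ratios of counts and not of molecules, because the transcripts differ in length.

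**Figure D4:**
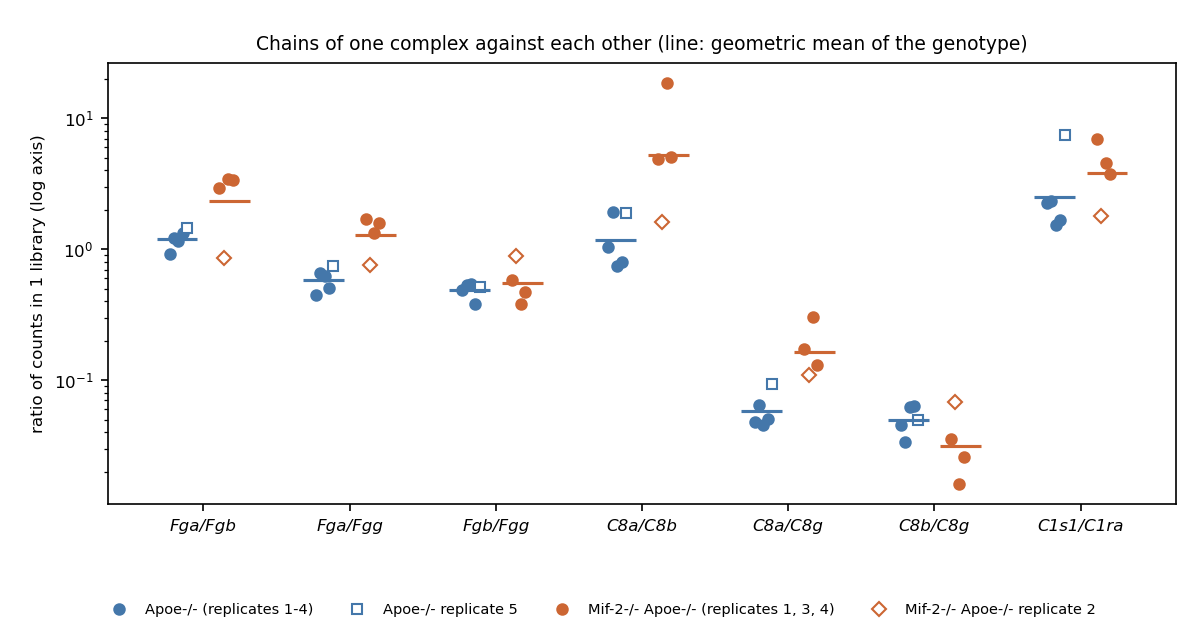
The ratio of counts of 2 chains or partners is plotted for each library on a log axis (blue, *Apoe*-/-; orange, *Mif-2*-/-*Apoe*-/-; open square, *Apoe*-/- replicate 5; open diamond, *Mif-2*-/-*Apoe*-/- replicate 2; lines, geometric means). In *Fga*/*Fgg* and *C8a*/*C8g* the 4 *Mif-2*-/-*Apoe*-/- points lie above all 5 *Apoe*-/- points, and in *Fgb*/*Fgg* and *C8b*/*C8g* the genotypes overlap.

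*F2*, for prothrombin, the precursor of thrombin, had the lowest p of the 41 members. It was at 2933, 3069, 1939, 2410.4 and 1044 CPM in *Apoe*-/- replicates 1 to 5 and 786, 1249, 658 and 825 CPM in *Mif-2*-/-*Apoe*-/- replicates 1 to 4 (Entrez 14061, chr2:91625320-91636414). *Mif-2*-/-*Apoe*-/- replicate 2 exceeded *Apoe*-/- replicate 5, and this was the only overlap. Mean levels of 2279 ± 823 (*Apoe*-/-, SD, n = 5) against 879.5 ± 256 CPM (*Mif-2*-/-*Apoe*-/-, SD, n = 4) gave a log2 fold change of -1.37 (SE 0.36), with adjusted p-values of 0.141 (edgeR) and 0.00558 (DESeq2). DESeq2 called *F2* in each of the 9 fits that left out 1 library, and it was the only member for which this held. With edgeR it was called in 1 of those 9 fits, the one without *Apoe*-/- replicate 5.

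*F10* and *F7* are neighbours on chromosome 8, followed by *Proz*, and lay on different sides of 0. Factor VII with tissue factor activates factor X, and protein Z is a cofactor for a serpin that inhibits factor Xa. *F10* was at 2011, 1944, 1657, 2078 and 802 CPM in *Apoe*-/- and 742, 1364, 787 and 956 CPM in *Mif-2*-/-*Apoe*-/- libraries (Entrez 14058, chr8:13037308-13056676), with *Mif-2*-/-*Apoe*-/- replicates 2 and 4 above *Apoe*-/- replicate 5. *F10* had a log2 fold change of -0.82 (SE 0.34), at adjusted p-values of 0.272 (edgeR) and 0.142 (DESeq2). *F7* (chr8:13026034-13035809) was at 239.9 to 439 CPM in *Apoe*-/- and 275 to 741 CPM in *Mif-2*-/-*Apoe*-/- libraries, with a log2 fold change of 0.62 (SE 0.33, adjusted p = 0.389 by edgeR). *Proz* (chr8:13060914-13076026) was at 127 to 279 CPM and 153 to 348 CPM, with a log2 fold change of 0.54 (SE 0.33, adjusted p = 0.461 by edgeR). *F5*, for the cofactor of factor Xa, was at 135 to 162 CPM and 91.5 to 206 CPM, with a log2 fold change of 0.10 (SE 0.30), and unlike most members was not at its lowest in *Apoe*-/- replicate 5. *F13b*, the carrier subunit of the enzyme that cross-links fibrin, was at 2.82 to 17.6 CPM and 1.70 to 11.6 CPM (log2 fold change -0.46, SE 0.81).

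No gene of the intrinsic and contact pathway had an unadjusted p below 0.05 in the edgeR test, and their log2 fold changes ran from -1.12 to 0.64. *F9*, for factor IX, was at 23.0 to 54.0 CPM in *Apoe*-/- and 6.55 to 32.4 CPM in *Mif-2*-/-*Apoe*-/- libraries, with a log2 fold change of -0.99 (SE 0.54, adjusted p = 0.395 by edgeR). *F11*, for factor XI, was at 33.3 to 97.8 CPM and 55.4 to 157 CPM, with a log2 fold change of 0.64 (SE 0.40). Its neighbour *Klkb1*, for plasma prekallikrein, was at 169 to 242 CPM and 95.0 to 204 CPM, with a log2 fold change of -0.51 (SE 0.32), and shares exons with the gene model *Gm45753*. *F8*, for factor VIII, is made by endothelial cells rather than hepatocytes and was near the limit of detection, with 0 to 15 counts per library and 0 to 1.37 CPM in *Mif-2*-/-*Apoe*-/- and 0 to 2.82 CPM in *Apoe*-/- libraries. DESeq2 gave it no adjusted p. The summed level of 10 sinusoidal endothelial markers was 303 to 685 CPM in *Apoe*-/- and 182.5 to 881 CPM in *Mif-2*-/-*Apoe*-/- libraries.

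The 9 genes of inhibitors and fibrinolysis had a median log2 fold change of -0.66, with 7 below 0, 4 lower and 0 higher at an unadjusted p below 0.05. The shares at this threshold were 6.52% lower and 8.99% higher over all genes tested. They were 10.9% and 7.83% over those averaging 10 CPM or more. *Vtn*, for vitronectin, a plasma and matrix adhesion protein that also restrains the terminal complement complex, was the most abundant of all 41 members per kilobase, at 2795 CPM per kb. It was at 8787, 8676, 7512, 9015 and 3259.6 CPM in *Apoe*-/- and 2464, 6191, 2645 and 2515 CPM in *Mif-2*-/-*Apoe*-/- libraries (Entrez 22370, chr11:78499091-78502324). *Apoe*-/- replicate 5 was nearer to *Mif-2*-/-*Apoe*-/- replicates 1, 3 and 4 than to the other *Apoe*-/- libraries, and *Mif-2*-/-*Apoe*-/- replicate 2 nearer to *Apoe*-/- replicates 1 to 4. *Vtn* had a log2 fold change of -1.11 (SE 0.40), at adjusted p-values of 0.219 (edgeR) and 0.0895 (DESeq2).

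*Proc*, for protein C, which inactivates factors Va and VIIIa, ranked second of this role per kilobase, at 1308 CPM per kb. That rank rests on the exon length used, 2478 bases for *Proc* and 8546 for *Serpinc1*. *Proc* was at 3479, 3549, 2951, 2824 and 2530.1 CPM in *Apoe*-/- and 4428, 2618, 3172 and 3629 CPM in *Mif-2*-/-*Apoe*-/- libraries (Entrez 19123). *Apoe*-/- replicate 5 was again the lowest of its genotype, but *Mif-2*-/-*Apoe*-/- replicate 2 was the lowest of its own and not the highest. The genotypes overlapped widely, and the log2 fold change of 0.17 (SE 0.29, adjusted p = 0.819 by edgeR) was, to 2 decimals, that of the median over all genes tested. *Pros1*, for protein S, the cofactor of protein C, was at 4.96 to 10.8 CPM and 4.28 to 6.71 CPM, with a log2 fold change of -0.58 (SE 0.74).

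*Serpinc1* encodes antithrombin, the main inhibitor of thrombin and factor Xa, and *Serpind1* encodes heparin cofactor II, which inhibits thrombin. *Serpinc1* was at 4892, 4679, 6308, 6349 and 2072 CPM in *Apoe*-/- and 1751, 4653, 1548 and 1342 CPM in *Mif-2*-/-*Apoe*-/- libraries (Entrez 11905, chr1:160978585-161005863). *Mif-2*-/-*Apoe*-/- replicate 2 was just below *Apoe*-/- replicates 1 and 2, and the other 3 *Mif-2*-/-*Apoe*-/- libraries were below all *Apoe*-/- libraries. Its log2 fold change was -1.07 (SE 0.44), at adjusted p-values of 0.271 (edgeR) and 0.161 (DESeq2), and an exon of the opposite-strand gene *Zbtb37* overlaps it. *Serpind1* was at 371, 453, 289.7, 417 and 199 CPM and 172, 231, 88.9 and 253 CPM (Entrez 15160, chr16:17331371-17343575). Here *Mif-2*-/-*Apoe*-/- replicate 4 was the highest of its genotype, and *Mif-2*-/-*Apoe*-/- replicates 2 and 4 exceeded *Apoe*-/- replicate 5. *Serpind1* had a log2 fold change of -0.89 (SE 0.36) at adjusted p-values of 0.263 (edgeR) and 0.123 (DESeq2).

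Of the fibrinolysis genes, *Cpb2* encodes TAFI, a carboxypeptidase that slows clot lysis, *Plg* encodes plasminogen and *Serpinf2* encodes its inhibitor, alpha 2-antiplasmin. *Cpb2* was at 88.8, 83.9, 97.7, 135 and 66.6 CPM in *Apoe*-/- and 31.1, 82.9, 57.7 and 27.2 CPM in *Mif-2*-/-*Apoe*-/- libraries (Entrez 56373, chr14:75242287-75283555), with only *Mif-2*-/-*Apoe*-/- replicate 2 above *Apoe*-/- replicate 5. Its log2 fold change was -0.93 (SE 0.39) at adjusted p-values of 0.28 (edgeR) and 0.203 (DESeq2). *Plg* was at 537 to 932 CPM and 356 to 810.4 CPM, with a log2 fold change of -0.56 (SE 0.32), and *Serpinf2* at 472 to 1007 CPM and 260.5 to 631 CPM, with -0.66 (SE 0.34). Plasminogen and its inhibitor thus had means on the same side.

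The counts behind these comparisons depended on single libraries. The 14 members lower at an unadjusted p below 0.05 became 21 when *Mif-2*-/-*Apoe*-/- replicate 2 was left out and 19 when *Apoe*-/- replicate 5 was, and 9, 5, 8 and 8 without *Apoe*-/- replicate 4 and *Mif-2*-/-*Apoe*-/- replicates 1, 3 and 4. The share of all genes tested that were lower moved the same way, from 6.52% to 9.20% and 8.04% in the first 2 of these fits and to 5.75%, 5.38%, 5.33% and 5.31% in the other 4. Without *Mif-2*-/-*Apoe*-/- replicate 2, edgeR called *Mbl1*, *Mbl2* and *Cfi*, and DESeq2 called 16 members, all lower, where edgeR called 1.60% and DESeq2 10.7% of all genes. Without *Apoe*-/- replicate 5, edgeR called *F2* alone and DESeq2 called 14 members, 13 of them lower and *Masp1* higher, where these shares were 0.777% and 12.6%. In the 7 other fits DESeq2 called 1 or 2 members and between 2.86% and 3.79% of all genes. In each of the 9 edgeR fits the median log2 fold change of every role was below 0. TMMwsp scaling, which accounts for zero counts, moved the median of all genes tested from 0.17 to 0.00 and that of the members from -0.63 to -0.81, so that their distance was -0.80 and -0.81.

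Other genes of these pathways were read from lists of names. Of 22 further complement genes, 15 had a log2 fold change below 0, 2 were lower and 0 higher at an unadjusted p below 0.05, none was called by edgeR, and the median was -0.46. Of all genes tested, 6.52% were lower and 8.99% higher at this threshold. The 7 genes above 0 included *C4b*, the highest of the 22 in CPM, and *Hc*, at 0.24 (SE 0.29) and 0.57 (SE 0.32). Some of the 22 were near the limit of detection, such as *Cd46* with 0 to 8 counts per library (-2.38, SE 1.61). Without overlap of the genotypes was *C1rl*, related to *C1ra*, at 258 to 342 CPM in *Apoe*-/- and 107 to 246 CPM in *Mif-2*-/-*Apoe*-/- libraries (log2 fold change -0.52, SE 0.31). In this direction 2.24% of all genes tested were separated. The 2 at an unadjusted p below 0.05 were *Clu*, for clusterin, a soluble inhibitor of the terminal complex, at 1175 to 3663 CPM in *Apoe*-/- and 694 to 1817 CPM in *Mif-2*-/-*Apoe*-/- libraries (log2 fold change -1.35, SE 0.40, adjusted p-values 0.167 with edgeR, 0.0363 with DESeq2), and *C1qa*, a chain of C1q made by macrophages, at 138 to 548 CPM and 114 to 312 CPM (log2 fold change -1.12, SE 0.43, adjusted p = 0.242). Genes of the other C1q chains, *C1qb* and *C1qc*, had log2 fold changes of -0.47 (SE 0.46) and -0.80 (SE 0.40), without an unadjusted p below 0.05. The summed level of 6 Kupffer cell markers was 769.8 to 1282 CPM in *Apoe*-/- and 897 to 1137 CPM in *Mif-2*-/-*Apoe*-/- libraries, and 1 of the 6, *Cd5l*, had an unadjusted p below 0.05, lower.

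Of 18 further coagulation genes tested, 2 were lower and 2 higher at an unadjusted p below 0.05. Of all genes tested, 6.52% were lower and 8.99% higher, and of those averaging 10 CPM or more 10.9% and 7.83%. In a list of 18 genes, counts of 2 do not stand apart from these shares. *Serpina10*, the serpin that works with protein Z, was at 189.7 to 399.5 CPM in *Apoe*-/- and 141 to 262 CPM in *Mif-2*-/-*Apoe*-/- libraries, with a log2 fold change of -0.73 (SE 0.31, adjusted p = 0.28 by edgeR), and *Mcfd2*, part of the receptor that exports factors V and VIII from the endoplasmic reticulum, at -0.83 (SE 0.38, adjusted p = 0.316). *Hgfac*, for a protease that activates hepatocyte growth factor, was at 1297, 1136, 953, 899 and 1145 CPM in *Apoe*-/- and 2028, 1287, 1779 and 2168 CPM in *Mif-2*-/-*Apoe*-/- libraries, with a log2 fold change of 0.74 (SE 0.28, adjusted p-values 0.231 with edgeR, 0.0153 with DESeq2). *F13a1*, the catalytic subunit of factor XIII, made by macrophages and platelets, was near the limit of detection and had 0, 7, 2, 1 and 1 against 1, 1, 18 and 63 counts (adjusted p = 0.269 by edgeR), so that 2 *Mif-2*-/-*Apoe*-/- libraries carried the difference.

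The vitamin K cycle serves the gamma-carboxylation of prothrombin, factors VII, IX and X, and proteins C, S and Z. *Vkorc1*, the epoxide reductase that warfarin inhibits, was at 279, 400.5, 574, 572 and 194 CPM in *Apoe*-/- and 90.9, 245, 68.3 and 101 CPM in *Mif-2*-/-*Apoe*-/- libraries. *Mif-2*-/-*Apoe*-/- replicate 2 lay between *Apoe*-/- replicate 5 and the other 4 *Apoe*-/- libraries, and the other 3 *Mif-2*-/-*Apoe*-/- libraries were below all of *Apoe*-/-. The log2 fold change was -1.68 (SE 0.44) at adjusted p-values of 0.141 (edgeR) and 0.0152 (DESeq2). *Cyp4f14* had a log2 fold change of -0.80 (SE 0.31, adjusted p = 0.253), and *Ggcx*, the carboxylase itself, -0.34 (SE 0.58). In all, 5 of the 6 genes of the list were below 0 and 2 were lower at an unadjusted p below 0.05, where 6.52% of all genes tested were lower. Of the 7 vitamin K-dependent members, 4 were below 0 and 3 above, and *F2* and *F10* had an unadjusted p below 0.05.

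Of 12 transcription factors that hepatocytes use to express these genes, 4 had a log2 fold change below 0 and 8 had one above 0, with a median of 0.59. *Cebpb*, at 187 to 371 CPM in *Apoe*-/- and 311 to 589.8 CPM in *Mif-2*-/-*Apoe*-/- libraries (0.70, SE 0.32), and *Nr1h4*, which encodes the bile acid receptor FXR (0.71, SE 0.31), were higher, and *Foxa3* (-0.86, SE 0.37) lower, at an unadjusted p below 0.05, and none of the 12 was called by edgeR. *Hnf4a*, a main activator of clotting factor genes, and *Cebpa* had log2 fold changes of -0.06 (SE 0.33) and -0.19 (SE 0.31). Of the markers of other cells that passed the filter on low counts, 1 of 6 for stellate cells, 0 of 4 for cholangiocytes, 0 of 5 for platelets, 0 of 10 for sinusoidal endothelium and 1 of 5 for adipocytes had an unadjusted p below 0.05. The stellate gene was *Rgs5*, lower, with 0 to 8 counts per library, and the adipocyte gene *Adig*, higher, with 0 to 38. At this threshold 6.52% of all genes tested were lower and 8.99% higher.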

How the data were processed

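Liver mRNA was measured in 5 *Apoe*-/- and 4 *Mif-2*-/-*Apoe*-/- libraries, with groups taken from the labelled genotype. The authors checked and trimmed reads with FastQC and cutadapt, aligned them with HISAT2 (mm10, per the submitters' processing notes) and deposited raw counts on exons per gene under Entrez identifiers. The table held 27179 genes and 1 line without an identifier, left out here. RefSeq (GRCm38.p6) gave symbols to 25275. Members and lists were chosen with earlier results of these data known.

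A gene was kept where 3 or more libraries of a genotype had a count, and the 10 most highly expressed genes were removed. The study's summary of methods gives this filter for its bulk RNA-seq, and its methods section for another set of liver libraries. The remaining 16860 genes were fitted in edgeR 4.0.16 under R 4.3.3 with TMM factors, the quasi-likelihood test and Benjamini-Hochberg adjustment. The SE was taken as the log2 fold change over the root of the F statistic. DESeq2 1.42.0 was run on every gene with a count as an alternative. Exact permutation tests were two-sided over 126 arrangements. Levels between genes were divided by exon length, the union of all annotated exons of a gene (GENCODE M21, GRCm38). This length can exceed that of a single transcript, so ranks per kilobase depend on it. The test was tested on simulated data. Total counts of 2318148 to 10764182 limit precision for genes below about 10 CPM, and 3 counts were taken as the floor. Counting error alone is covered.

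Values in every library are given for members with an unadjusted edgeR p or DESeq2 adjusted p below 0.05, without overlap of the genotypes, or among the 2 most abundant of their role per kilobase, and for the fibrinogen chains and *C8a*. Genes of other pathway lists are named at an unadjusted p below 0.05. *Hnf4a*, *Cebpa*, *Ggcx*, *Kng2*, *C1rl*, *C4b*, *Hc*, *Cd46*, *C1qb* and *C1qc* were named after their values were seen. A gene of the wider coagulation list is not reported here. Alternatives were RLE and TMMwsp scaling, no filter and edgeR's filter, the 10 genes kept, mitochondrial, rRNA, Gm and Rik genes removed, a replicate block, DESeq2 and each library left out. The hepatocyte covariate and DESeq2 without each library were added after seeing the data.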

Additional observations from a re-analysis of the deposited data

Results flagged for a closer look

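Of 82 sets of values, the 41 members in each genotype, 8 held a library whose gap to its nearest neighbour was over Dixon's 95% critical value. For a single set of normal values chance gives about 1 in 20. The sets share the same libraries and the CPM were not logged, so the count of 8 cannot be judged by that rate. In *Apoe*-/- replicate 5, *Mbl1* was at 236 CPM where the next lowest library was at 518, *Masp2* at 86.5 CPM where the next was at 286, and *Vtn* at 3260 CPM where the next was at 7512. In *Mif-2*-/-*Apoe*-/- replicate 2, *Mbl1* was at 466 CPM where the next highest was at 144, *Mbl2* at 940.4 CPM where the next was at 220.4, *Serpinc1* at 4653 CPM where the next was at 1751, and *Vtn* at 6191 CPM where the next was at 2645. *Cfd* was at 36.3 CPM in *Apoe*-/- replicate 4, where the next highest library was at 12.7 CPM. Of the 8, 7 fell in the libraries with 11.2% and 23.1% of counts from hepatocyte markers, and what part that share has in them was not tested.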

How the results depend on the processing

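Every edgeR fit over all libraries without a block left 0 of 41 members called, whether scaling was TMM, RLE or TMMwsp, and whatever the filter. DESeq2 called 1 complement member and 2 clotting factors, and had 3 members higher at an unadjusted p below 0.05 where edgeR had 1. With TMMwsp that number was 0, as it was with the replicate block, and with the hepatocyte marker share as a covariate it was 2. The replicate block called 5 complement members, 2 clotting factors and 2 of the inhibitors and fibrinolysis genes (560 of all genes against 22), but the labels do not say that same-numbered libraries are paired. The correlations of deviations between same-numbered libraries were 0.14, -0.02, 0.01 and -0.03, 1 of 4 *Apoe*-/- libraries was closest to its own number, and *Apoe*-/- replicate 5, which has no partner, adds nothing to that fit. Deviations of *Apoe*-/- libraries were taken from a mean that included replicate 5, so these correlations do not settle pairing. Signs turned for members near 0. *Cfd* was at 0.01 with RLE and with DESeq2 and 0.14 with the block. With TMMwsp, *F5* was at -0.07 and *Proc* at -0.02. With the covariate, *C1ra* was at 0.30, *Cfd* at 0.41, *Serping1* at 0.10, *Fga* at 0.01 and *Kng1* at 0.21. The cause was not tested.

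With 1 library left out, edgeR called 0 to 3 complement members and 0 to 1 clotting factors. Members at an unadjusted p below 0.05 numbered 5 to 21 lower and 0 to 4 higher, and DESeq2 called 1 to 16. The log2 fold change ranged from -0.29 to 0.05 for *C1ra*, from -0.35 to 0.55 for *Cfd*, from -0.06 to 0.28 for *F5* and from -0.47 to 0.06 for *Kng1*. Depth limits *F8*, *Pros1* and *F13b* most, which had as few as 0, 10 and 3 counts in a library.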
